A study of Mus musculus with 6 samples.

Results

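The nexin-dynein regulatory complex (N-DRC) and the axonemal rulers were followed through the genes of 10 of their proteins. They are Drc1, Drc3, Drc7, Ccdc65, Gas8, Iqcg, Tcte1 and Iqca for the complex, and Ccdc39 and Ccdc40 for the rulers. They were looked up by symbol or by another name of the same Entrez gene, and 9 of the 10 were found among the 21225 genes of the table. Drc1 was not analysed here. Gene expression had been profiled in whole lungs of C57BL/6 mice at embryonic day 18.5, with 3 control and 3 RbpjkCNULL lungs and 1 Affymetrix array per lung. The RbpjkCNULL lungs carried Shhcre/+ and RbpjkFlox/Flox, so that Rbpj, the DNA-binding partner of activated Notch receptors, was deleted where this cre acted. The authors describe the deletion as specific to the airways. In which cells of these lungs it took place was not measured here. The controls were Shh cre/+ by one label and wildtype by another, so it is not settled whether they shared the cre allele with the RbpjkCNULL lungs. Lungs were cut at or below the carina, without trachea.

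Motile cilia beat because dynein arms slide the outer doublet microtubules of the axoneme against each other. The N-DRC is the link between neighbouring doublets that turns this sliding into bending, and it regulates the dynein motors at its base. Ccdc39 and Ccdc40 form a long coiled coil on each doublet that acts as a molecular ruler, setting the spacing of the repeat in which the N-DRC, the radial spokes and the dynein arms are placed. In humans, loss of CCDC39, CCDC40, DRC1, CCDC65 or GAS8 causes primary ciliary dyskinesia. In the lung these structures belong to the multiciliated cells of the airways, a cell type that Notch signaling restrains in favour of secretory cells.

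Values are log2 expression values as the authors normalized them, and differences are RbpjkCNULL minus control. The test was limma's moderated linear model, in which every gene borrows information on its spread from the others, with Benjamini-Hochberg adjustment over all 21225 genes. Rises and falls are named only at an adjusted p under 0.05. The arrays correlated with each other at 0.988 to 0.997 across genes, and their lower quartiles ran from 4.87 to 5.11 and overlapped between the groups. Rbpj was at 6.45, 6.50 and 6.74 in control lungs and at 6.26, 6.17 and 6.18 in RbpjkCNULL lungs, a difference of -0.36 (standard error 0.09, adjusted p = 0.21 from limma). The alveolar genes Sftpc and Ager and the lung epithelial factor Nkx2-1 were present in every lung and differed by 0.03, 0.03 and -0.07. Scgb1a1, the defining gene of Clara cells, fell in RbpjkCNULL lungs, with a difference of -5.37 (standard error 0.45, adjusted p = 0.00249 from limma). Xist, a marker of female cells, was at 10.5, 10.7 and 4.91 in control lungs and at 4.28, 4.13 and 4.21 in RbpjkCNULL lungs, so the groups also differed in sex.

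Of the 9 genes measured, 7 rose in RbpjkCNULL lungs, none fell and 2 did not pass limma's test (unadjusted, 9 were higher at p under 0.05). Of all genes 1.27% passed, and as shares of all genes 1.16% rose, 0.113% fell and 3.56% were higher at an unadjusted p under 0.05. Drc3, Ccdc39, Iqcg, Drc7, Ccdc65, Ccdc40 and Iqca rose, by 1.51-fold to 2.09-fold, while Tcte1 and Gas8 did not pass. The median difference of the 9 genes was 0.61 (1.52-fold), against -0.05 for all genes. In each of the 9 genes the lowest RbpjkCNULL lung lay above the highest control lung, which was the case for 4.95% of all genes. The reverse held for 9.28% of all genes and either for 14.2%. Since whole lungs were measured, more cells of a type and more RNA per cell cannot be told apart. The count was 4 without control replicate 1, without control replicate 3, without RbpjkCNULL replicate 2 or without RbpjkCNULL replicate 3, and it was 5 without control replicate 2 and 6 without RbpjkCNULL replicate 1. Drc3, Ccdc39, Iqcg and Drc7 passed in 6 of these 6 fits, and Ccdc65, Ccdc40 and Iqca in 1 of 6 each, with adjusted p of up to 0.106. The median deviation of the 9 genes from their means over the 6 lungs was -0.34, -0.34 and -0.29 in control replicates 1, 2 and 3 and 0.31, 0.39 and 0.35 in the RbpjkCNULL lungs. Control replicate 3, the control with low Xist, was below the RbpjkCNULL lungs. It was also the highest control for 5 of the 9 genes and the lowest for 0. With the lungs of low Xist alone, 1 control against 3 RbpjkCNULL lungs, the median difference was 0.60 with all 9 genes higher, but 0 of the 9 passed limma's adjusted test (9 at an unadjusted p under 0.05), and the lone control was assumed to vary like the others.

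**Figure D1:**
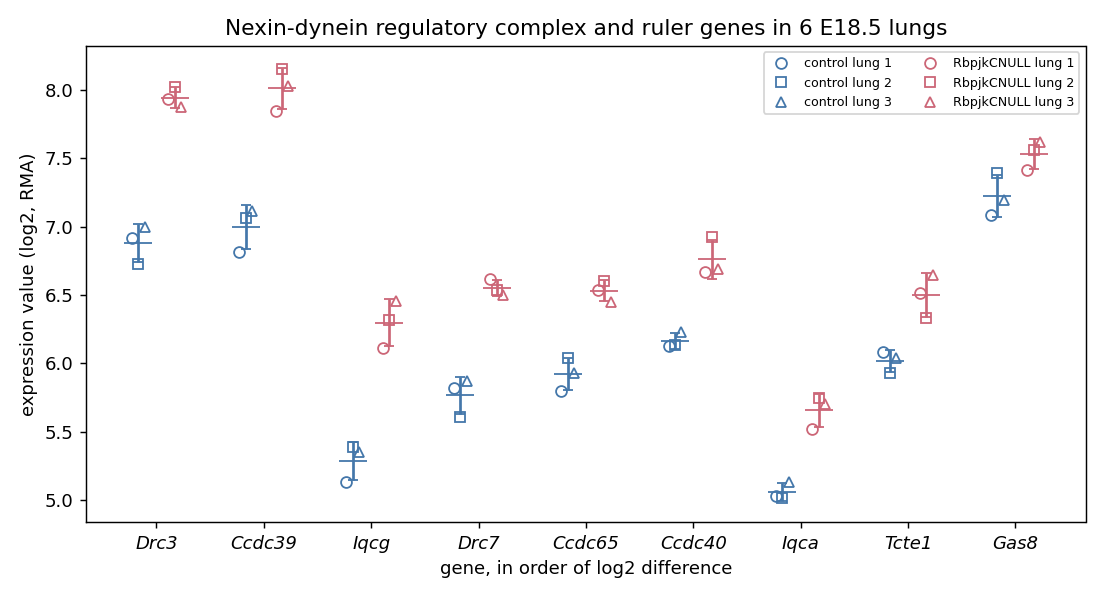
Expression values (log2, y axis) of the 9 measured genes (x axis) in each of the 3 control (blue) and 3 RbpjkCNULL (red) lungs, with horizontal bars for the mean and vertical bars for the SD. The groups are apart for every gene, by 0.88 between the nearest lungs for Drc3 and by 0.02 for Gas8. Levels of different genes are not comparable on these arrays.

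Both ruler genes rose in RbpjkCNULL lungs. Ccdc39 (Entrez Gene 51938) had values of 6.82, 7.07 and 7.11 in control lungs and of 7.85, 8.15 and 8.03 in RbpjkCNULL lungs. Its mean went from 7.0 ± 0.16 to 8.01 ± 0.15 (SD, n = 3 lungs each), a difference of 1.01 (standard error 0.11, 2.02-fold, adjusted p = 0.0053 from limma). Ccdc40 (Entrez Gene 207607), the partner of Ccdc39 in the ruler, had values of 6.13, 6.13 and 6.23 in control lungs and of 6.67, 6.92 and 6.69 in RbpjkCNULL lungs. The difference was 0.60 (standard error 0.09, 1.51-fold, adjusted p = 0.0217 from limma). Replicate 2 was the highest of the RbpjkCNULL lungs and replicate 1 the lowest for both genes. Taken within each lung, the change of Ccdc39 exceeded that of Ccdc40 by 0.41 (standard error 0.09, 95% interval 0.17 to 0.66). An exact permutation test over the lungs (two-sided) gave p = 0.1, below which a design of 3 against 3 cannot go. The promoters of the ruler genes are set side by side because the estimated changes of the partners differed. Whether the sequences bear on this was not tested. They are RefSeq windows of GRCm38.p6 from 250 bases before to 50 after the start site, printed 5′ to 3′, at chr3:33844261-33844560, minus strand, and at chr11:119228322-119228621, plus strand. Capitals mark short forms of the binding motif of RFX factors, described with all promoters further on.
Ccdc39: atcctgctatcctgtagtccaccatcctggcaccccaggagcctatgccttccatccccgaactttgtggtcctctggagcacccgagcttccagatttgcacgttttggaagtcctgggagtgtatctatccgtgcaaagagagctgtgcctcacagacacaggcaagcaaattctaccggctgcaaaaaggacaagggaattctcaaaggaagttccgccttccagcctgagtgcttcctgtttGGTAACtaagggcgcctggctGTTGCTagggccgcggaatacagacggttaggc
Ccdc40: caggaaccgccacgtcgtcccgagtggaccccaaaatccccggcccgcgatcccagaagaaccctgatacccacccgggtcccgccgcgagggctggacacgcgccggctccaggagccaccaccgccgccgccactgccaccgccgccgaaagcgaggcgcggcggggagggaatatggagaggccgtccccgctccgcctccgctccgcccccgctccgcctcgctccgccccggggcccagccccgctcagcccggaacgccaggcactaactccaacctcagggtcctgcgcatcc

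Ccdc65 and Gas8 encode proteins of the coiled-coil base plate, through which the N-DRC sits on its doublet together with the product of Drc1. Ccdc65 (Entrez Gene 105833), also called Drc2, had values of 5.80, 6.04 and 5.93 in control lungs and of 6.53, 6.61 and 6.45 in RbpjkCNULL lungs. It rose by 0.61 (standard error 0.09, 1.52-fold, adjusted p = 0.0174 from limma). Gas8 (Entrez Gene 104346), also called Drc4, had values of 7.09, 7.39 and 7.19 in control lungs and of 7.41, 7.56 and 7.62 in RbpjkCNULL lungs. The lowest RbpjkCNULL lung and the highest control lung, replicate 2, were nearly level. The difference was 0.31 (standard error 0.10, 95% interval 0.07 to 0.54, 1.24-fold), and it did not pass (adjusted p = 0.406 from limma, unadjusted p = 0.0172). Taken within each lung, the change of Ccdc65 exceeded that of Gas8 by 0.30 (standard error 0.09, 95% interval 0.05 to 0.55, exact permutation p = 0.1, again the lowest this design can give). The promoter of Gas8 (chr8:123518585-123518884, plus strand) is shown as that of the gene with the smallest change.
Gas8: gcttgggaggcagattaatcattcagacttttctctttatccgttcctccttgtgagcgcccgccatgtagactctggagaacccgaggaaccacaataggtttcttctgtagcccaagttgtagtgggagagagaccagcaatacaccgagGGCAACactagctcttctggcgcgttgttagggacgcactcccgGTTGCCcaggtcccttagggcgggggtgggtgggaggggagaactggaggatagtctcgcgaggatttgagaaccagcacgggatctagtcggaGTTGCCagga

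The other 5 subunits are not part of this base plate. Drc3 (Entrez Gene 74665), a leucine-rich repeat protein, had values of 6.92, 6.73 and 7.0 in control lungs and of 7.93, 8.02 and 7.88 in RbpjkCNULL lungs. It rose by 1.06 (standard error 0.09, 2.09-fold, adjusted p = 0.00249 from limma), with an SD of 0.07 in RbpjkCNULL lungs and 0.14 in controls. For Iqcg, Ccdc40, Iqca and Tcte1 the SD was the larger in RbpjkCNULL lungs, and no difference in spread was tested. Iqcg (Entrez Gene 69707), also called Drc9, has an IQ motif of the kind that binds calmodulin, and mice without it have infertile males. Its values were 5.13, 5.39 and 5.35 in control lungs and 6.12, 6.31 and 6.46 in RbpjkCNULL lungs. The rise was 1.01 (standard error 0.11, 2.01-fold, adjusted p = 0.0053 from limma). Drc7 (Entrez Gene 330830), a subunit of the linker, went from 5.82, 5.61 and 5.87 to 6.62, 6.54 and 6.50, a rise of 0.79 (standard error 0.09, 1.73-fold, adjusted p = 0.00534 from limma).

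Iqca (Entrez Gene 74918), also called Iqca1 or Drc11, encodes a protein with an IQ motif and an AAA domain. It had values of 5.03, 5.02 and 5.13 in control lungs and of 5.52, 5.75 and 5.70 in RbpjkCNULL lungs. It rose by 0.60 (standard error 0.08, 1.51-fold, adjusted p = 0.0174 from limma). Tcte1 (Entrez Gene 21645), also called Drc5, was first described as a testis transcript of the t-complex. Its values were 6.08, 5.93 and 6.04 in control lungs and 6.51, 6.33 and 6.65 in RbpjkCNULL lungs, a difference of 0.48 (standard error 0.10, 95% interval 0.25 to 0.71, 1.39-fold). Its groups did not overlap, but it did not pass (adjusted p = 0.0886 from limma, unadjusted p = 0.00143). Tcte1 passed when the values were normalized again by quantiles (adjusted p = 0.0276 from limma) or by cyclic loess (adjusted p = 0.0249 from limma), with adjusted p of 0.0249 to 0.689 over all alternatives. The promoters of Drc3, the gene with the largest change (chr11:60353130-60353429, plus strand), and of Iqca, which holds the longest match to the RFX motifs searched (chr1:90153387-90153686, minus strand), are given after their values.
Drc3: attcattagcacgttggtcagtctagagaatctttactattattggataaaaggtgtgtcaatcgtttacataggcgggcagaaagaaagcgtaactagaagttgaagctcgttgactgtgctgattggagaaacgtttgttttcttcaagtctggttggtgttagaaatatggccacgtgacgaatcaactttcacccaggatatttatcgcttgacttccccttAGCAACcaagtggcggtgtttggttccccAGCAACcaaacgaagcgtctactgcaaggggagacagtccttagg
Iqca: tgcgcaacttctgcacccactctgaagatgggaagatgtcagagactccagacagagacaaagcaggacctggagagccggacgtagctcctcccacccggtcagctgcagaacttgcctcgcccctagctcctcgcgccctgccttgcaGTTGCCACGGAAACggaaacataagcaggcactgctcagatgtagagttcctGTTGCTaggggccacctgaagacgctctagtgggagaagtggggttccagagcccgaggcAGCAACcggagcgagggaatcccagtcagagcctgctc

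Ordered by their change, the genes ran from Drc3 over Ccdc39, Iqcg, Drc7, Ccdc65, Ccdc40, Iqca and Tcte1 to Gas8. No single step of this order stood beyond the spread between lungs. Neighbours in an order sorted by these same changes are close by construction, so the steps cannot show whether the genes changed alike. The ends of the order, Drc3 with 1.06 and Gas8 with 0.31, were not compared within lungs. The 8 steps, taken within each lung, were between 0.00 and 0.22, each with a 95% interval that included 0 and a two-sided exact permutation p of 0.3 to 1. Drc3 exceeded Ccdc39 by 0.05 (95% interval -0.36 to 0.46) and Ccdc39 exceeded Iqcg by 0.00 (-0.22 to 0.23). The widest step, of 0.22, lay between Iqcg and Drc7 (95% interval -0.31 to 0.75). The 2 rulers and the 7 subunits of the complex were mixed in the order, with Ccdc39 second and Ccdc40 sixth.

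**Figure D2:**
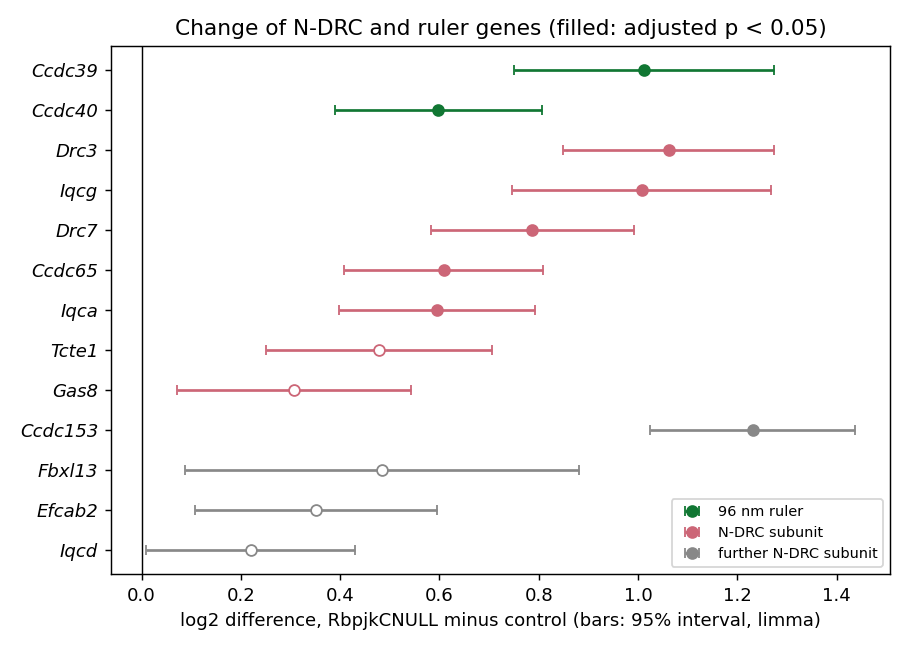
Log2 differences (x axis, RbpjkCNULL minus control) of the 2 ruler genes (green), the 7 N-DRC subunits (red) and 4 further N-DRC subunits (grey), with 95% intervals from limma and filled points for genes that rose. The differences of all 13 genes are above 0, from 0.22 for Iqcd to 1.23 for Ccdc153.

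The complex has more subunits than the genes above, and 4 further ones were measured. Of these, 1 rose and 3 did not pass limma's test (4 higher at an unadjusted p under 0.05). Ccdc153, whose counterpart in the green alga Chlamydomonas is DRC12, had values of 8.44, 8.41 and 8.45 in control lungs and of 9.82, 9.63 and 9.54 in RbpjkCNULL lungs. It rose by 1.23 (standard error 0.09, 2.35-fold, adjusted p = 0.00163 from limma). Fbxl13, or Drc6, had a difference of 0.48 (standard error 0.17, adjusted p = 0.46 from limma). The calcium-binding Efcab2, or Drc8, had 0.35 (0.10, adjusted p = 0.332) and Iqcd, or Drc10, had 0.22 (0.09, adjusted p = 0.555). In Fbxl13 control replicate 1 was the lowest lung, at 4.64 against 5.20 and 5.26 in the other controls. The median of these 4 subunits was 0.42, and it was 0.30 without control replicate 1.

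The markers of ciliated cells were higher in the same lungs. Of 14 markers, 13 rose and none fell, with a median difference of 0.88 (7 rose without RbpjkCNULL replicate 2 and 8 without RbpjkCNULL replicate 3). Their summed level (log2) was 10.9 to 11.1 in control lungs and 11.8 in each RbpjkCNULL lung. Such a sum weighs most the genes of high values, here Sec14l3 (mean 9.60 in control lungs). The N-DRC and ruler genes were set against these markers within each lung, as the deviation of each gene from its mean minus the median deviation of the markers. This comparison was added after the values were seen. Relative to the markers, Drc3 had a change of 0.24 (standard error 0.08, 95% interval 0.03 to 0.45), Ccdc39 of 0.19 (-0.07 to 0.45), Iqcg of 0.18 (-0.12 to 0.48) and Drc7 of -0.04 (-0.27 to 0.20). Ccdc65 had -0.21 (-0.45 to 0.02), Ccdc40 -0.23 (-0.41 to -0.04), Iqca -0.23 (-0.37 to -0.09) and Tcte1 -0.34 (-0.68 to -0.01). Gas8 was lowest against the markers, with -0.52 (standard error 0.11, 95% interval -0.82 to -0.21). The groups did not overlap for Drc3, Ccdc65, Ccdc40, Iqca, Tcte1 and Gas8, with the lowest exact permutation p this design can give, 0.1, and an adjusted p of 0.15 over the 9 comparisons. Ccdc39 and Iqcg had an exact p of 0.2 and Drc7 one of 0.8. The markers' median deviation was itself -0.46, -0.43 and -0.31 in control lungs and 0.38, 0.45 and 0.43 in RbpjkCNULL lungs. A gene without any change would thus also be lower in RbpjkCNULL lungs on this measure. The share of all genes without overlap on it was not computed.

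**Figure D3:**
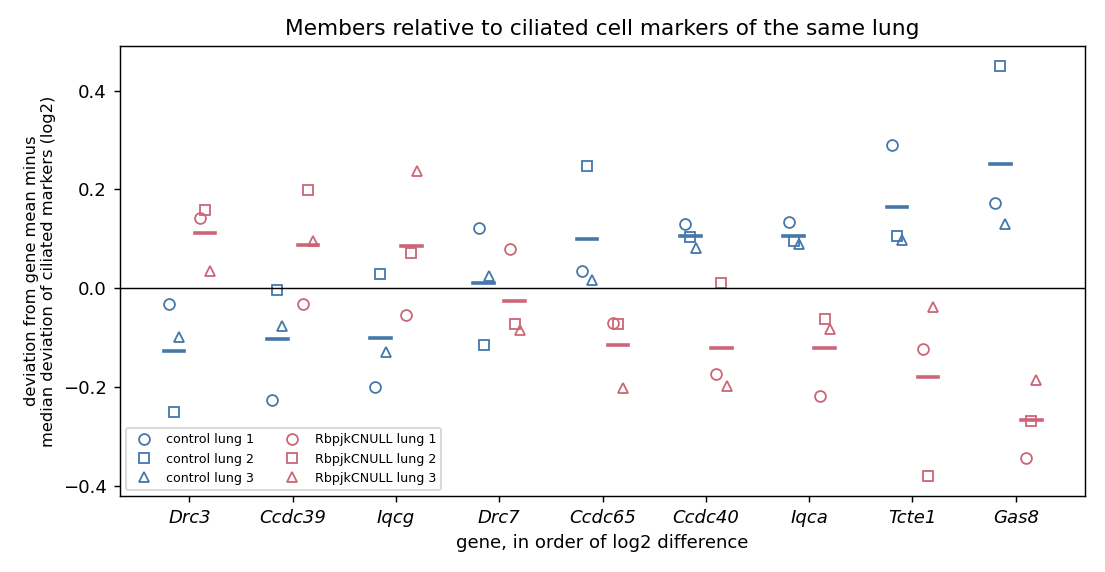
Deviation of each gene from its mean over the 6 lungs, minus the median deviation of 14 ciliated cell markers in the same lung (log2, y axis), for control (blue) and RbpjkCNULL (red) lungs, with a bar at each group mean. The group means differ by 0.24 for Drc3, which is higher in RbpjkCNULL lungs, and by -0.52 for Gas8, which is lower.

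Other parts of the axoneme were set beside the N-DRC and the rulers. Of 12 measured genes listed as their neighbours in the axonemal repeat, 9 rose, with a median of 0.89, among them Cfap206 (1.19) and Ccdc146 (1.19). Of 12 genes of the inner dynein arms, whose attachment depends on the rulers, 10 rose, with a median of 0.88. Dnah12 had the largest difference there, 1.45, and Dnah7a had 1.20 without passing (adjusted p = 0.0576 from limma). Of 13 genes of the radial spokes 7 rose (median 0.70, Rsph4a 1.24, Nme5 1.19), and of 14 genes of the outer dynein arms and their docking 8 rose (median 0.61, Dnah5 1.10, Dnah9 0.97). None of these 4 lists had a gene that fell. Differences were above 0 for 11 of the 13 radial spoke genes and 11 of the 14 outer arm genes, and for all 12 in each other list. In the radial spoke list 1 gene was lower at an unadjusted p under 0.05 from limma. Without RbpjkCNULL replicate 2 the counts were 6 for the inner arms and 3 for the outer arms, and for the outer arms they were 4 or 5 without control replicate 1, control replicate 3, RbpjkCNULL replicate 1 or RbpjkCNULL replicate 3. The median of the N-DRC and ruler genes, 0.61, lay within the range of these lists, and no difference between the lists was tested. Of 11 regulators of multiciliated cell fate 1 rose (Foxj1, by 0.78; 0 of 11 without control replicate 2 or any 1 of the RbpjkCNULL lungs), and Myb followed with 0.39 (adjusted p = 0.109 from limma). The count was 2 with an intensity trend or quantile normalization and 3 with cyclic loess or with genes under the median of gene means left out. It was 0 by the methods' t-test, with the Xist level or the lower quartile as a covariate, and without both arrays numbered 1. The median of these regulators was 0.05, and it was 0.23 without RbpjkCNULL replicate 1. Rfx2 and Rfx3, which encode RFX factors, had 0.23 (adjusted p = 0.287) and 0.37 (adjusted p = 0.107). Of the 11 regulators 7 had a difference above 0. Gmnc went the other way, with -0.33 (adjusted p = 0.379 from limma) and every RbpjkCNULL lung below every control. Mcidas had -0.20 (adjusted p = 0.664 from limma).

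Of 10 lists for other cell types, apart from secretory cells, none had a gene that passed in either direction, and their medians lay between -0.19 (smooth muscle) and 0.12 (alveolar type 2 cells). These outer values moved with the setting. Smooth muscle had -0.40 when the arrays' lower quartiles entered the fit, and alveolar type 2 cells had -0.04 with the Xist level as a covariate and -0.02 in the lungs of low Xist alone. Germ cell markers, listed because sperm tails hold the same complex, had a median of -0.12. Of 11 secretory cell markers 10 fell (median -1.31). The remaining marker, Aldh1a1, went the other way, with 0.72 and every RbpjkCNULL lung above every control, without passing (adjusted p = 0.0805 from limma). Among the 10 that fell, Scgb1a1, Scgb3a2, Cyp2f2, Reg3g, Krt15, Hp, Cbr2 and Upk3a had been picked by the authors from these same arrays for being lower. Their fall was thus known in advance and is no separate evidence. The N-DRC and ruler genes and the ciliated cell markers were higher, and most secretory cell markers lower, in the same 3 RbpjkCNULL lungs.

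**Figure D4:**
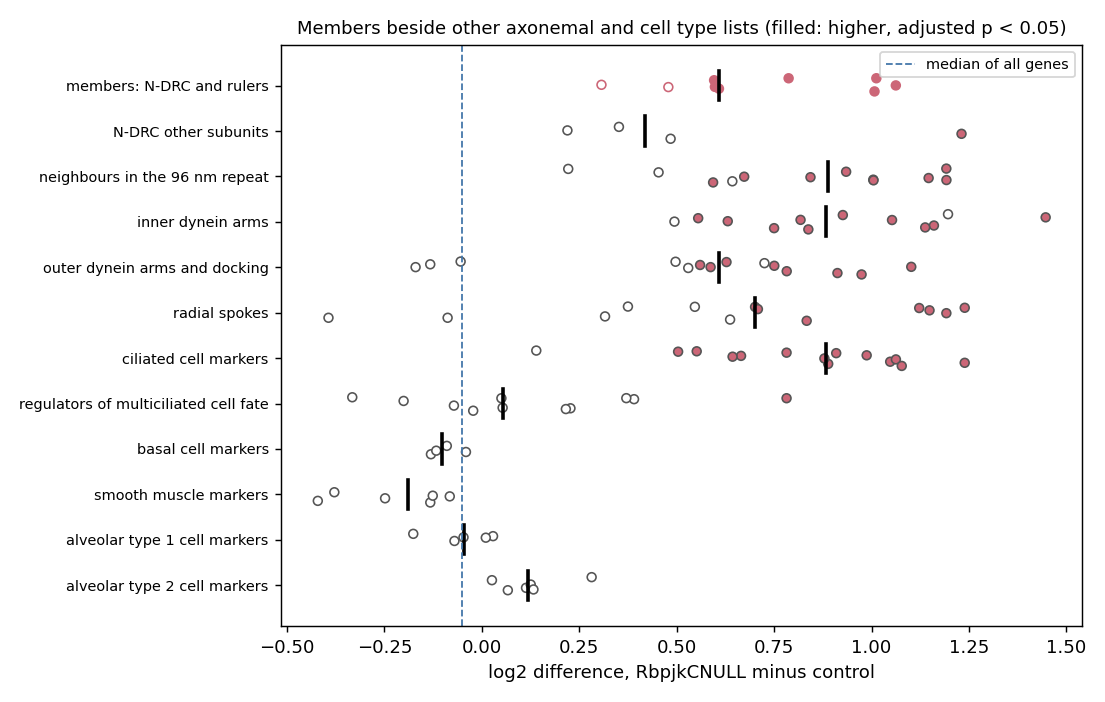
Log2 differences (x axis) of the single genes of each list (rows), with a black bar at the list's median, filled points for genes that rose and a dashed line at the median of all genes, -0.05. The N-DRC and ruler genes sit at 0.31 to 1.06, within the range of the other axonemal lists, while the basal cell markers sit at -0.13 to -0.04.

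Promoter windows were found for 8 of the 9 genes, and Tcte1 had none. They were searched on both strands for the X-box, the palindromic motif of RFX factors, which drive many cilia genes. It occurred in 1 of the 8, in Iqca, as GTTGCCACGGAAAC starting 100 bases before the start site, and in 2.17% of 32851 windows of all genes. The 6-letter forms of an arm of this motif searched for were GTTGCC (in 12.5% of all windows), GTTGCT (14.8%), GTTACC (7.21%) and GTTACT (8.21%). They were added after the sequences had been read, so their counts in these 8 windows are no separate evidence, and they can overlap the X-box. At least 1 of them was present in 7 of the 8 windows, against 35.8% of all windows, and at least 2 sites in 6 of the 8, against 8.68%. The window without any was that of Ccdc40, which was also the richest in G and C (74.3%, against 43% to 59.7% in the others). The window of Gas8 held 3 sites, 98 and 54 bases before and 41 bases after the start site, and that of Drc3 held 2, at 24 bases before and 6 after it. The forkhead motif TGTTTAC, of the kind that Foxj1 binds, was in 0 of the 8 windows and in 3.65% of all windows. The Rbpj motif CGTGGGAA was in 0 of the 8 and in 0.734% of all windows. These are matches of letters and not measured binding sites.

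Start sites of a second measured gene lay within 1 kb on the opposite strand for 2 of the genes. Drc3 faces Tom1l2, which encodes an endosomal trafficking protein and had values of 7.50, 7.49 and 7.61 in control lungs and of 7.57, 7.54 and 7.54 in RbpjkCNULL lungs. Its difference was 0.02 (95% interval -0.14 to 0.18, adjusted p = 0.947 from limma). Taken within each lung, the change of Drc3 exceeded that of Tom1l2 by 1.04 (standard error 0.07, exact permutation p = 0.1, again the lowest this design can give). Iqcg faces Rpl35a, a ribosomal protein gene with near-identical copies that may share its probes, which had a difference of 0.11 (95% interval -0.21 to 0.43, adjusted p = 0.837 from limma). The change of Iqcg exceeded that of Rpl35a by 0.89 (standard error 0.26, exact p = 0.1).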

How the data were processed

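Total RNA of whole lungs was amplified, labelled with biotin and hybridised to Affymetrix Mouse Gene 1.0 ST arrays, 1 per lung. The deposited values are log2 values that the authors made by RMA, which corrects background, normalizes by quantiles and summarizes probes by median polish, with a BrainArray mapping to Entrez Gene and R 2.12.0. They were used without a filter or further scaling. The platform annotation gave a symbol for 20239 of the 21225 genes and none for 986. Groups followed the sample titles. Limma 3.58.1 under R 4.3.3 (lmFit, eBayes without trend, 3.48 prior degrees of freedom) was the main test, and it was tested on simulated data. Differences within a lung were compared with two-sided exact permutation tests over the 6 lungs, and their 95% intervals came from the spread between lungs. The labels do not give separate litters, and the number of arrays limits the precision. Members and the 18 gene lists were chosen with earlier results of these data known. Of 151 listed genes 142 were found. The text names all members, the 4 further subunits and, for the lists of the axoneme, the 2 genes with the largest differences. Rfx2, Rfx3, Gmnc, Mcidas, Aldh1a1 and the facing genes were named after their values were seen, and for most cell types only counts are given. Promoter sequences are from RefSeq (GRCm38.p6), and the files name no genome build. The alternatives were the methods' t-test, trend, robust fits and array weights, other scalings, leaving out single arrays, blocking on the replicate number, the Xist level or lower quartile as a covariate, and dropping genes whose mean was under the median or the 25th percentile. Leaving out both arrays numbered 1 and using the lungs with low Xist alone were chosen after seeing the data.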

Additional observations from a re-analysis of the deposited data

How the results depend on the processing

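All 9 genes were higher under every alternative that measured them, and their median ran from 0.57 to 0.69, apart from 0.81 when genes under the median of gene means were left out, which removed 5 of the 9. Under that filter limma passed 3 of the 4 genes still measured (Drc3, Ccdc39 and Ccdc40, but not Gas8). Of all 9 genes, 8 passed with quantile or cyclic loess normalization, where Tcte1 was gained, and 7 with trend, robust fits, array weights, arrays centred on the median, the lower filter and the lower quartile as a covariate. The count was 0 by the methods' t-test (9 at an unadjusted p under 0.05), 0 by limma with the Xist level as a covariate (8 unadjusted), 0 with the lungs of low Xist alone (9 unadjusted), 4 without both arrays numbered 1 and 4 to 6 when 1 array was left out. Over all genes, limma called 270, against 8 by the methods' t-test (1769 unadjusted), 0 with the Xist covariate (1418 unadjusted), 0 with the lungs of low Xist (1833 unadjusted), 179 without both arrays numbered 1 and 139 to 236 when 1 array was left out. Xist and genotype overlap in part, since 1 control lung had low Xist like the RbpjkCNULL lungs, and the median of the 9 genes was 0.61 with the Xist covariate and 0.60 with the lungs of low Xist alone. With the replicate number as a block 7 of the 9 genes passed and 304 genes in all, and the block changed no call of the 9. The deviations of same-numbered arrays correlated at 0.49, 0.31 and -0.09 across genes, and those of differently numbered arrays at -0.53 to 0.41. Whether the numbers pair the lungs cannot be told from these values. The change of Ccdc39 beyond Ccdc40 ran from 0.34 to 0.46 and that of Ccdc65 beyond Gas8 from 0.24 to 0.39. Of the 4 further N-DRC subunits, the median was 1.23 with genes under the median of gene means left out, which kept 1 of them. The median of the ciliated cell markers was 0.69 with the Xist covariate and 0.72 with the lungs of low Xist alone. The median of the regulators of multiciliated cell fate was 0.18 without both arrays numbered 1.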
